A study of Mus musculus with 16 samples.

Results

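The Pol II landscape of cells without Atxn7l3 is compared here between mouse embryonic stem cells (mESCs) and mouse embryonic fibroblasts (MEFs). The members were all Pol II peaks on the 19 autosomes in the 2 knockout (KO) libraries, with no choice by value. There were 11632 such peaks in KO mESCs and 31552 in KO MEFs, together 43184 of the 107139 Pol II peaks in the 4 Pol II lists and of the 245651 peaks in all 8 lists. The X and Y chromosomes were left out, which removed few peaks (11963 and 32232 were listed in all).

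Pol II was mapped by ChIP-seq, the sequencing of immunoprecipitated chromatin, through the C-terminal domain of its largest subunit RPB1. KO cells carried the null genotype Atxn7l3-/- and wild-type (WT) cells Atxn7l3+/+, all on a mixed DBA/2 x C57BL/6 background. mESCs were derived from blastocysts and grown with leukaemia inhibitory factor and the inhibitors PD0325901 and CHIR99021, of MEK and GSK3, and feeder cells were removed before use. MEFs were primary cultures of E10.5 embryos without head and gut, so a culture can hold other embryonic cells, and the study, which calls its KO cultures MEF-like, saw many round cells in them. Each group had 1 library, so differences between libraries stand without replicates and without p-values. The 95% intervals reflect counting error alone. Sequencing depth is unknown for every list, and the names of the peaks carry one prefix in both mESC lists and another in both MEF lists. Cell type, medium and whatever that prefix stands for cannot be told apart.

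ATXN7L3 is the adaptor that USP22 and related ubiquitin proteases need to remove ubiquitin from histone H2B, so its loss leaves more H2Bub1 on transcribed genes. Pol II starts at the promoter, pauses shortly downstream of the transcription start site (TSS), and then moves through the gene body and past the polyadenylation site before it is released. A Pol II ChIP-seq peak therefore marks mostly starting and paused polymerase at a promoter, and further peaks in a gene body or behind a gene end mark dense elongating or slowing polymerase. Most promoters in use are common to all cell types, are rich in CpG dinucleotides and serve housekeeping genes, while lineage genes are used in one cell type and often have fewer CpGs.

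The sequences below show promoter windows of some of the kinds met in the results, from 250 bases before to 50 bases from the TSS of the gene record onwards, and the summit window of the strongest intergenic mESC peak that had no MEF peak, was also called in WT and touched no annotated gene. No promoter with Pol II in MEFs only in both genotypes is printed. All are 300 bases, read from the GRCm38 (mm10) genome 5′ to 3′ on the given strand, and capitals mark each CpG dinucleotide. Polr2a had Pol II in both cell types, Sox2 and Nanog in mESCs only, Upk1b in KO MEFs only, and Hoxa10 in WT MEFs and not in KO MEFs.
Polr2a promoter (chr11:69758588-69758887, minus strand): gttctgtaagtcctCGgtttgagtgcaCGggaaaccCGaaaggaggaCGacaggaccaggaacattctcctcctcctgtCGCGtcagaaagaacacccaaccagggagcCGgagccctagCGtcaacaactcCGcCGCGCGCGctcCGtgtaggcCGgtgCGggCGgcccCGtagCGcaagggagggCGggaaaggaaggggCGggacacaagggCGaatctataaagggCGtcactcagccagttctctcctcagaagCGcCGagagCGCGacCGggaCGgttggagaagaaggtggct
Sox2 promoter (chr3:34650155-34650454, plus strand): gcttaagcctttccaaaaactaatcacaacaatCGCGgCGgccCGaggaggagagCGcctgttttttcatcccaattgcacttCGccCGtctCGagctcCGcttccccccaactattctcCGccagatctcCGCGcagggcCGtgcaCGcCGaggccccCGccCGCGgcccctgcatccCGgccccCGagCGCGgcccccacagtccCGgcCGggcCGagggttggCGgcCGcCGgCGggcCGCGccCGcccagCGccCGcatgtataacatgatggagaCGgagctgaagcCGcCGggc
Nanog promoter (chr6:122707239-122707538, plus strand): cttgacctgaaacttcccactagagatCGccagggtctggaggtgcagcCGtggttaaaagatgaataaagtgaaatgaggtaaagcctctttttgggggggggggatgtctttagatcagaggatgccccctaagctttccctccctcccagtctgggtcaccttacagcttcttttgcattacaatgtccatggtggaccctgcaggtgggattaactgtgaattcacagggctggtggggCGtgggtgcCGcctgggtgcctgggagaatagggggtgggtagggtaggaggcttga
Upk1b promoter (chr16:38800279-38800578, minus strand): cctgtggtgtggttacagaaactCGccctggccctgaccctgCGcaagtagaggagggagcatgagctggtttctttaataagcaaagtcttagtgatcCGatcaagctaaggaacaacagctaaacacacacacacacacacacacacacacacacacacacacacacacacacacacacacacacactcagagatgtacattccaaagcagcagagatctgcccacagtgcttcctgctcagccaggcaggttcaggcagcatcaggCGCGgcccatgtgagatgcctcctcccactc
Hoxa10 promoter (chr6:52240805-52241104, minus strand): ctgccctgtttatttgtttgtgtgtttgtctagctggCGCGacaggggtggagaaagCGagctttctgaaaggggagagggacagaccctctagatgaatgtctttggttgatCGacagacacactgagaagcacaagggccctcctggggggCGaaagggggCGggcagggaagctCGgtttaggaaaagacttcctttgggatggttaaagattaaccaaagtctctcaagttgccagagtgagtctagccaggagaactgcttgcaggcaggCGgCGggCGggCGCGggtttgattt
Intergenic peak of mESCs (chr4:135300476-135300775, plus strand): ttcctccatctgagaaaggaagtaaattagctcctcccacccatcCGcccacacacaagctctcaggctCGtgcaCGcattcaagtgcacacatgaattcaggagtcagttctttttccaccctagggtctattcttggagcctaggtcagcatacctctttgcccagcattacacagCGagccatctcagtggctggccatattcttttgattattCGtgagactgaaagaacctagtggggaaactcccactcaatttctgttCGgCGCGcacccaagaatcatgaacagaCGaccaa
The CpG count ran from 4 at Nanog and 5 at Upk1b, through 12 at Hoxa10, to 29 at Polr2a and 37 at Sox2, and the intergenic window held 9. The TSS of RefSeq (GRCm38.p6) was the same for Nanog and Hoxa10, 4 bp downstream for Polr2a and 410 bp upstream for Sox2. The printed Sox2 stretch thus lies downstream of the RefSeq TSS and ends with 39 coding bases, and the window at its RefSeq TSS held 27 CpGs.

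The targeted gene Atxn7l3 had a promoter peak in all 4 Pol II libraries, with a fold of 3.71 in KO and 3.61 in WT mESCs and 23.4 in KO and 20.9 in WT MEFs. By the study's methods loxP sites flanked exons 2 to 12. In the annotated transcript with 13 exons that span (chr11:102291898-102295059) held no Pol II summit in any library, KO or WT. Pol II peaks covered 11.9% of it in KO and 20.7% in WT mESCs, and 10.9% in KO and 19.3% in WT MEFs, while H2Bub1 covered 13.03% in KO and 100% in WT mESCs and 19.6% in KO and 21.6% in WT MEFs. The last exon (chr11:102289300-102291803) held 2 Pol II summits each in KO mESCs (highest fold 5.77) and KO MEFs (8.03), and H2Bub1 covered all of it in both. WT mESCs had 1 summit there (7.36) and WT MEFs 0. In a second annotated transcript with 12 exons, exon 12 is this last exon, and by that numbering these peaks lie inside the span. If that whole span was removed, they would go against the KO label of both libraries. The study made this null allele by FLP recombination. It also reports that ATXN7L3 protein could not be detected in its KO mESCs and MEFs and that H2Bub1 was raised in both. Which numbering the methods use is not stated, so KO stands for the label throughout.

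Where did Pol II peaks lie in KO cells? A peak was placed by its summit in a promoter (1000 bp either side of the TSS of a protein-coding gene record), else in a gene body, else between genes. In KO mESCs, 52.3% of peaks lay in promoters (95% interval 51.4 to 53.2), 26.0% in gene bodies (25.2 to 26.8) and 21.7% between genes. In KO MEFs, 31.2% lay in promoters (30.7 to 31.7), 46.8% in gene bodies (46.3 to 47.4) and 22.0% between genes. Promoter windows make up 1.59% of the autosomes, gene bodies 39.4% and the rest 59.0%, so both lists were concentrated at promoters. The smaller promoter share of KO MEFs did not mean fewer promoter peaks, of which KO MEFs had 9848 and KO mESCs 6080. It came with 14774 gene-body peaks in KO MEFs against 3023 in KO mESCs.

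The order of the promoter shares depended on how many peaks were listed. When the MEF list was reduced to its 11632 strongest peaks by -log10 p, as many as in KO mESCs, 70.7% of its peaks lay in promoters, 18.8% in gene bodies and 10.46% between genes, and the direction of both the promoter and the gene-body difference turned. In both cell types the promoter share went down with peak strength. Among 5 equal bins by -log10 p it ran from 70.6% in the strongest to 31.7% in the weakest bin in KO mESCs, and from 83.6% to 5.37% in KO MEFs. The weakest MEF bin had 67.3% of its peaks in gene bodies. In WT cells promoters held 39.3% of 16925 mESC peaks and 22.7% of 44890 MEF peaks, so the KO lists were shorter and held more of their peaks in promoters in both cell types.

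**Figure D1:**
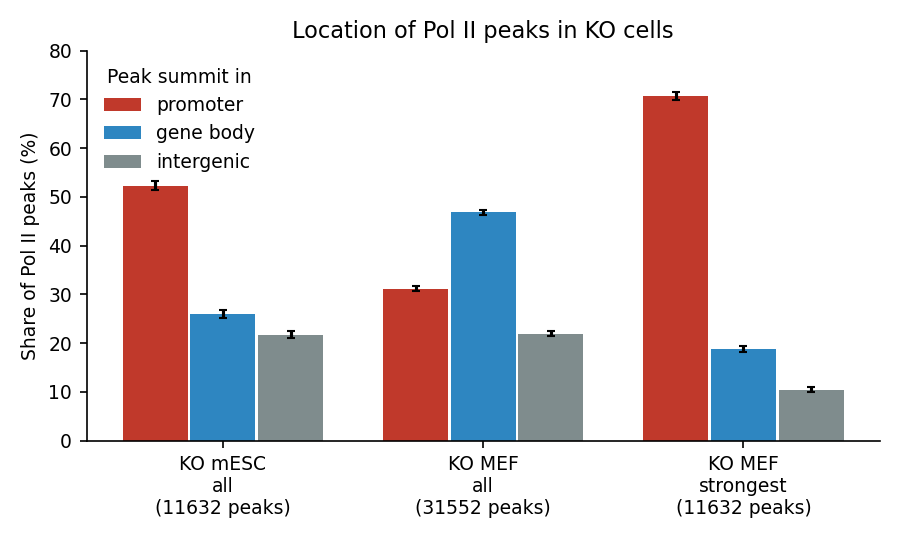
Share of Pol II peaks (vertical axis, %) whose summit lay in a promoter, a gene body or between genes, for all KO mESC peaks, all KO MEF peaks and the 11632 strongest KO MEF peaks, with exact 95% intervals. Promoters hold 52.3% of mESC peaks against 31.2% of all and 70.7% of the strongest MEF peaks.

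Peaks of KO MEFs were wider, and at promoters their enrichment was higher. The fold given for a peak is the pileup at its summit over the local background of that library. At promoters its median was 4.46 in KO mESCs (4.42 to 4.52) and 10.9 in KO MEFs (10.8 to 11.1), with median widths of 556 bp and 1142 bp. In gene bodies the median folds were close, 3.75 in KO mESCs and 3.56 in KO MEFs, and so were those between genes, 3.91 and 3.78. With equal numbers of peaks they were no longer close: the KO MEF medians were 8.33 in gene bodies and 7.69 between genes, and the widths were 1273 bp at promoters, 1525 bp in gene bodies and 1582 bp between genes, against 556 bp, 414 bp and 432 bp in KO mESCs. The highest 5% of peaks began at 8.67 in KO mESCs and 19.3 in KO MEFs. Over all peaks the median width was 495 bp in KO mESCs and 664 bp in KO MEFs, and peaks over 2000 bp made up 2.13% and 10.1%. The widest peak had 7783 bp in KO mESCs and 42506 bp in KO MEFs, and the peaks covered 7.44 Mb and 31.8 Mb. Read depth, background and cell type all bear on fold and width, and their parts were not tested.

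Most promoter peaks of KO mESCs were shared with KO MEFs, and the reverse was less so. A peak was called shared where at least 1 bp of a peak of the other cell type overlapped it. This held for 93.9% of 6080 KO mESC promoter peaks (93.3 to 94.5), 51.7% of 3023 gene-body peaks (49.9 to 53.5) and 38.4% of 2529 intergenic peaks (36.5 to 40.3). Of the KO MEF peaks it held for 55.2% at promoters (54.2 to 56.2), 8.35% in gene bodies (7.90 to 8.80) and 11.3% between genes (10.6 to 12.1). With equal numbers of peaks the mESC shares were 89.5%, 37.0% and 24.2% and the MEF shares 62.5%, 35.8% and 34.0%. In WT cells the same promoter shares were 93.3% and 57.5%, the gene-body shares 51.4% and 9.52% and the intergenic shares 48.0% and 14.2%.

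Sharing followed strength in every place. Among 5 equal bins of KO MEF promoter peaks by -log10 p, 88.8% of the highest bin (median fold 20.7) and 20.2% of the lowest (3.92) had a KO mESC peak. For KO mESC promoter peaks the shares stood between 98.3% in the highest and 88.2% in the lowest bin. For KO mESC gene-body peaks they ran from 76.4% to 35.1%, and for KO MEF gene-body peaks from 28.4% to 2.34%.

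**Figure D2:**
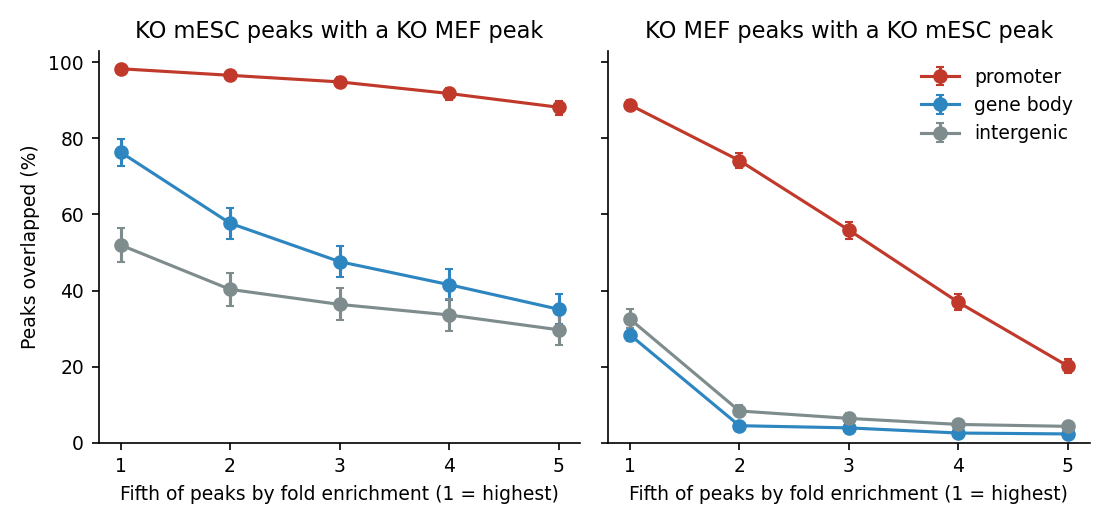
Share of KO mESC peaks overlapped by a KO MEF peak (left) and of KO MEF peaks overlapped by a KO mESC peak (right), as % on the vertical axis, for 5 equal bins of -log10 p from highest (1) to lowest (5), with exact 95% intervals. The axis label names fold enrichment, which only ordered peaks of equal -log10 p. At promoters the mESC line stays between 98.3% and 88.2%, and the MEF line goes from 88.8% to 20.2%.

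Between genes, most KO MEF peaks lay behind gene ends, and the largest group of KO mESC peaks lay far from genes. Within 5000 bp downstream of a protein-coding gene lay 39.2% of the intergenic KO mESC peaks and 53.2% of those of KO MEFs, and 7.79% and 5.97% lay at promoters of long non-coding RNAs. Distal places, outside these and over 5000 bp from a protein-coding gene, held 46.1% of them in KO mESCs and 34.3% in KO MEFs. Among peaks without a peak of the other KO cell type the distal shares were 62.8% (mESCs) and 36.0% (MEFs). Several of the highest intergenic peaks sat on small nuclear RNA genes and were present in both cell types. Such genes have near-identical copies, so their folds are uncertain. At Rnu11, an RNA of the minor spliceosome, the fold was 41.6 in KO mESCs and 35.8 in KO MEFs. At Malat1, an abundant nuclear long non-coding RNA, it was 27.3 in KO mESCs and 38.6 in KO MEFs.

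Some strong intergenic peaks had no peak of the other KO cell type and were also called in WT cells of their own type. In KO mESCs, Lncenc1, a long non-coding RNA of embryonic stem cells, had a fold of 13.1 (29.1 in WT mESCs) with no overlapping KO MEF peak. The mESC window printed above, 27812 bp from the nearest protein-coding TSS (Clic4), had a fold of 19.2 in KO and 14.1 in WT mESCs. In KO MEFs, Meg3, a maternally expressed imprinted long non-coding RNA, had a fold of 25.3 (28.7 in WT MEFs). A 13538 bp peak over the end of Vmp1 and Mir21a, which encodes the microRNA miR-21, had a fold of 25.4 (40.6 in WT MEFs), and WT mESCs also had a peak there (3.29). A 22182 bp peak ran from before the TSS of Thbs1, the gene of the matrix protein thrombospondin 1, to past its end. It had a fold of 29.5 (34.2 in WT) and counts as intergenic only by its summit, 17264 bp from that TSS. Lncenc1 and the mESC window had no WT MEF peak, and Meg3 and the Thbs1 peak no WT mESC peak.

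Which promoters carried Pol II in KO cells? A promoter was called where a peak touched its window, and among 20807 autosomal protein-coding genes this held for 32.1% in KO mESCs (6672) and 52.3% in KO MEFs (10890). Both cell types had a peak at 30.5% of the promoters (6337), mESCs only at 1.61% (335), MEFs only at 21.9% (4553) and neither at 46.1% (9582). In WT cells the shares were 33.4% (6940), 1.9% (396), 21.9% (4557) and 42.8% (8914). Promoters with Pol II in KO mESCs were thus almost a subset of those with Pol II in KO MEFs. With equal numbers of peaks, 615 promoters were in KO mESCs only.

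At the 6337 shared promoters the fold was higher in KO MEFs for 6109 (96.4%), with a median ratio of MEF to mESC fold of 2.83. Among WT cells this ratio was 3.27. A few shared promoters stood out with a higher fold in KO mESCs. Hist1h1a, which encodes a replication-dependent linker histone, had 36.7 in KO mESCs and 15.6 in KO MEFs (35.8 and 24.9 in WT), which is uncertain because histone genes resemble each other. H1fx, another linker histone gene, had 11.97 and 4.55 (7.60 and 12.1 in WT). Tfcp2l1, a transcription factor of naive pluripotency, had 16.6 and 7.08, with 12.4 in WT mESCs and no peak in WT MEFs. These genes were taken from the 8 with the highest mESC to MEF ratio after their values were seen.

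How far did cell-type-specific promoter use stand without Atxn7l3? Of the 4557 promoters with Pol II in WT MEFs only, 64.8% (63.4 to 66.1) were also in MEFs only in KO, 18.8% were in both cell types, 15.4% in neither and 0.987% (45 promoters) in mESCs only. Of the 396 promoters in WT mESCs only, 32.3% (27.7 to 37.2) were in mESCs only in KO, 54.8% in neither, 7.07% in both and 5.81% (23 promoters) in MEFs only. Counted over equal numbers of peaks, the WT mESC-only promoters were in both in 3.66% and in MEFs only in 2.27% (13 of 573), and the WT MEF-only ones in mESCs only in 1.78% (70 of 3925). Of the 6940 promoters in both WT cell types, 78.3% were in both and 19.2% in MEFs only in KO, and 96.0% of the 8914 promoters in neither were again in neither.

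The MEF pattern was mostly carried by peaks called again in KO MEFs. KO MEFs had a peak at 83.6% of the WT MEF-only promoters (82.5 to 84.6) and KO mESCs at 39.4% of the WT mESC-only ones (34.6 to 44.4). KO MEFs had a peak at 12.9% of the WT mESC-only promoters, against 2.95% of the promoters with no peak in either WT cell type (5.93% against 1.71% with equal numbers of peaks). KO mESCs had one at 19.8% of the WT MEF-only promoters, against 1.2%. Among promoters with any WT peak in the same cell type, 22.8% of mESC promoters (1673 of 7336) and 8.01% of MEF promoters (921 of 11497) had none in KO.

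The classes also differed in peak strength, and the shares did not follow it alike. The WT mESC-only promoters mostly had low folds: their strongest of 5 equal bins began at 4.37 and that of the WT MEF-only promoters at 14.9. In that strongest mESC bin 49 of 80 promoters (61.3%, 49.7 to 71.9) kept the class in KO, against 18 of 79 (22.8%) in the middle and 20 of 79 (25.3%) in the weakest bin. In the 5 MEF bins the shares were 62.2%, 69.2%, 77.5%, 70.8% and 44.1% from strongest to weakest, so the middle bin was highest. That weakest MEF bin spanned folds of 1.41 to 5.19, and the mESC bins below the strongest, from 2.02 to 4.37, kept 16.5% to 35.4%. In the strongest MEF bin most of the others were in both cell types in KO (35.0%), and in the weakest most were in neither (48.8%).

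**Figure D3:**
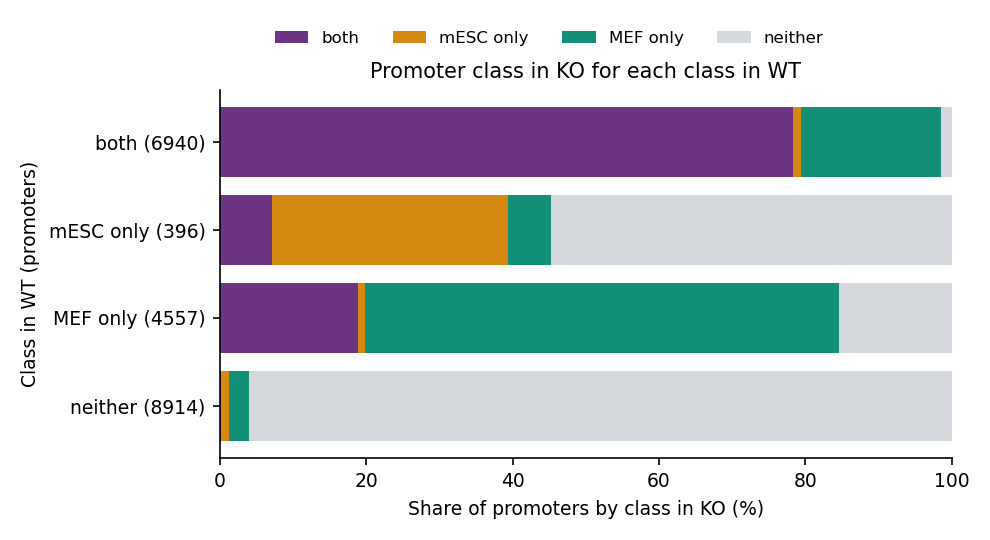
Class of promoters in KO (coloured shares, %, on the horizontal axis) for each class in WT (rows, with the number of promoters), where a class says in which cell type a Pol II peak was called. Of WT MEF-only promoters 64.8% and of WT mESC-only promoters 32.3% have the same class in KO.

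Genes known for each cell type showed on which promoters the pattern stood. In the lists below, the counts are of genes by class, to be read against the KO background of 1.61% in mESCs only and 21.9% in MEFs only over all promoters. The median fold of all called promoters was 4.53 in KO mESCs (4.39 in WT) and 11.6 in KO MEFs (13.3 in WT). Where WT and KO both had a peak, log2(KO fold / WT fold) had a median of 0.02 in mESCs and -0.22 in MEFs.

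Of 34 pluripotency genes, 13 had Pol II in mESCs only in KO, 9 in both cell types, 1 in MEFs only and 11 in neither, and the WT counts were 14, 9, 0 and 11. The median fold in KO mESCs was 4.97 over the 22 called (5.01 over 23 in WT). Sox2, a core factor of the naive network, had 9.41 in KO and 7.33 in WT mESCs and no peak in MEFs of either genotype. Pou5f1, which encodes OCT4, had 3.55 in KO and 5.01 in WT mESCs only. Nanog had 3.55 and 4.64 in mESCs only. Dppa5a, an RNA-binding protein gene of early embryos, had 8.08 and 6.81, and Gdf3, a TGF-beta family ligand gene, 6.70 and 6.72, both in mESCs only. Tdgf1, a NODAL co-receptor gene, had 2.81 in KO and 7.37 in WT mESCs. Utf1 (3.24 in WT mESCs) and L1td1 (3.80) had no peak in KO mESCs, and Tdh, a threonine dehydrogenase gene, had one in KO mESCs only (4.53). Lin28a, an RNA-binding protein gene that blocks let-7 maturation, had a peak in KO MEFs only (4.31), which was not called with equal numbers of peaks.

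Several pluripotency genes had Pol II in both cell types. Klf4 had 11.8 in KO mESCs and 25.8 in KO MEFs (7.05 and 26.8 in WT), and Klf2 8.78 and 27.6 (18.4 and 23.8 in WT). Both are Krüppel-like factors of the naive network that many other cells express. Esrrb, Fgf4 and Otx2 had no peak at the gene-record TSS and were in mESCs only when the start of any annotated transcript was allowed, which gave 15 of 34 genes in mESCs only in KO. This setting was added after the data were seen.

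Of 40 fibroblast genes, 29 had Pol II in MEFs only in KO, 3 in both, 1 in mESCs only and 7 in neither, and in WT 31, 5, 0 and 4. The median fold was 11.0 over the 32 called in KO MEFs and 19.7 over the 36 called in WT MEFs. Of the 31 called in both genotypes, 28 had a lower fold in KO, with a median log2 ratio of -0.94 beside -0.22 over all promoters, of which 67.5% were lower. Among the collagens, Col1a1 had 23.9 in KO and 38.3 in WT MEFs, Col1a2 19.4 and 43.3, and Col3a1 18.1 and 49.2. Vim, the mesenchymal intermediate filament gene, had 23.3 and 34.2. Twist1, a mesenchymal transcription factor, had 20.3 and 26.8, and Prrx1, a limb and trunk mesenchyme factor, 5.84 and 18.5. None of these had an mESC peak at the TSS of the gene record, and Col1a1 had one in WT mESCs at another transcript start. Postn, which encodes the matrix protein periostin, had 26.6 in WT MEFs and no peak in KO MEFs, and Col6a1 (7.93), Col6a3 (13.9), Fap (7.12) and Prrx2 (6.57) also had none, of which Prrx2 had a KO MEF peak at another transcript start. Tcf21, a mesoderm factor of the epicardium and visceral mesenchyme, had 18.2 in KO MEFs only.

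Of 19 contractile genes, 9 were in MEFs only, 7 in both and 3 in neither in KO, and 13, 6 and 0 in WT. The 16 called in both MEF genotypes had a median log2 ratio of -0.71, and 14 were lower in KO. Acta2, the smooth muscle actin gene, had 10.0 in KO and 31.6 in WT MEFs, and Tagln 11.3 and 23.0. Cnn1 (9.98), Actg2 (6.36) and Synpo2 (7.87 in WT MEFs) had no peak in KO MEFs. Ccn1 and Ccn2, matricellular protein genes, were in both cell types, with 8.74 each in KO mESCs and 35.8 and 26.5 in KO MEFs.

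Some promoters of epithelial and mesothelial genes had a Pol II peak in KO MEFs and none in WT MEFs. Of 20 such genes, 9 were called in KO MEFs (45.0%, beside 52.3% of all promoters), all in MEFs only, and 1 in WT MEFs (5.0%, beside 55.3%). Upk1b, a uroplakin gene, had 38.6 in KO MEFs, Crb2, a gene of apical polarity, 25.2, Upk3b 18.1, Lrrn4 14.2, and Wt1, a factor of mesothelium and kidney, 11.6. Krt7, a keratin of simple epithelia, had 11.3, Msln, the mesothelial surface protein gene, 10.2 and Gata4 4.06. None of these 8 had a peak in any other Pol II library. Gata4 was not called with equal numbers of peaks. At any annotated transcript start, a choice made after seeing the data, Krt19 was added in KO MEFs only and Cldn7 in both cell types of both genotypes. Gata6, a mesendoderm factor, had 22.2 in KO MEFs and 6.37 in WT MEFs. Of the other 11 genes, 4 were in mESCs only in KO and 7 in neither. Epcam, Cdh1 and Cldn4 were in mESCs only in both genotypes, with 5.50, 3.57 and 4.40 in KO mESCs, and Cldn3 in KO mESCs only (3.73). The general epithelial genes Krt8, Krt18, Esrp1 and Grhl2 had no Pol II peak at the promoter in either KO cell type. These genes were proposed with earlier results of these data known. In bulk chromatin, more cells with Pol II at a gene and more Pol II per cell cannot be told apart.

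Markers of other cell types were read beside the share of all promoters called, 52.3% in KO and 55.3% in WT MEFs. Of 12 endothelial genes, 1 had a peak in KO MEFs (8.33%, Pecam1, 4.31, which was not called with equal numbers of peaks) and 4 in WT MEFs (33.3%, 1 with equal numbers of peaks). Cdh5, Tek and Tie1 had none in any Pol II library. Of 14 blood genes, 10 had a peak in KO MEFs and 9 in WT MEFs, with median folds of 6.00 and 4.21. With equal numbers of peaks the MEF peaks were at 1 gene in both cell types and 4 in MEFs only in KO, and at 1 and 3 in WT. Among them Spi1, the myeloid factor PU.1, had 8.42 in KO and 4.93 in WT MEFs and Lyz2, lysozyme of macrophages, 9.37 and 6.00. Ptprc, which encodes the pan-leukocyte antigen CD45, had no peak at its TSS in any Pol II library. Of 12 primitive endoderm genes, 6 had a peak in KO MEFs and 6 in WT MEFs (50% each), of which Col4a1 and Col4a2 shared 1 peak (24.6 in KO), and Sox17, Sox7, Foxa2 and Hnf4a had none in KO. The part of such cells in the MEF results was not tested.

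Hox genes, which give position along the body axis, had a peak in KO MEFs at 20 of 39 (51.3%, beside 52.3% of all promoters) and in WT MEFs at 30 (76.9%, beside 55.3%). Of them, 15 were in MEFs only, 5 in both and 19 in neither in KO, and in WT 27 in MEFs only, 3 in both, 1 in mESCs only and 8 in neither. Split by paralogue group, which was done after the values were seen, 17 of 23 genes of groups 1 to 8 had a peak in KO MEFs and 19 in WT MEFs. Of the 16 genes of groups 9 to 13, 3 had a peak in KO MEFs (Hoxb9, Hoxc13 and Hoxd9) and 11 in WT MEFs. Hoxb9 and Hoxd9 and, of groups 1 to 8, Hoxa5, Hoxb3, Hoxb5, Hoxb6 and Hoxc8 lost their KO MEF call with equal numbers of peaks, when over the 39 genes 3 were in both cell types and 10 in MEFs only in KO, against 3 and 23 in WT. Hoxd13 had 16.1, Hoxa11 15.0, Hoxa10 13.3 and Hoxa9 12.2 in WT MEFs and no peak in KO MEFs at the TSS of the gene record, but Hoxa9 had one there at the start of another transcript. Of the 19 Hox genes called in both MEF genotypes, 8 were higher and 11 lower in KO. Among the higher ones Hoxb4 had 17.0 in KO and 8.44 in WT MEFs, Hoxb2 15.7 and 11.1 and Hoxa4 9.31 and 7.31, and among the lower ones Hoxa3 had 6.46 and 12.5, Hoxa7 5.48 and 12.4 and Hoxa5 4.26 and 5.04. Neighbouring Hox genes can share a peak, as Hoxd3 and Hoxd4 did (7.35 in KO MEFs).

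**Figure D4:**
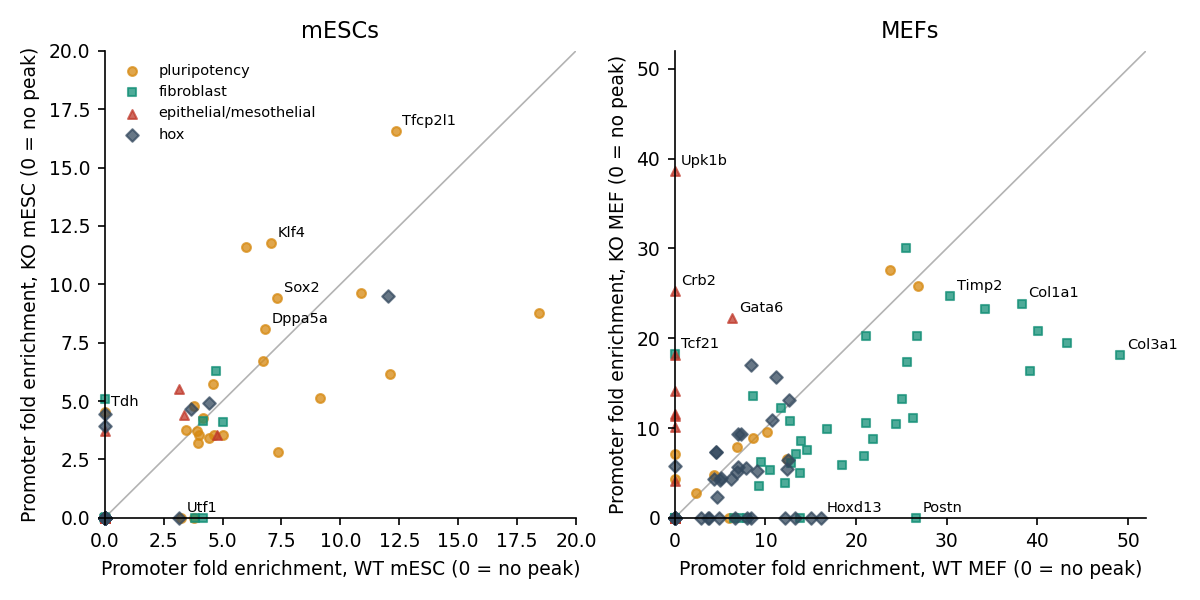
Promoter fold enrichment in WT (horizontal) and KO (vertical) for genes of 4 lists, in mESCs (left) and MEFs (right), where 0 means that no peak was called and the line marks equal values. Epithelial and mesothelial genes such as Upk1b (38.6) stand on the vertical axis in MEFs, and Postn (26.6 in WT) and posterior Hox genes lie on the horizontal axis.

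Of 20 ERK target genes, 12 had Pol II in both cell types (beside 30.5% of all promoters), 7 in MEFs only and 1 in neither in KO (14, 6 and 0 in WT). Dusp6, a phosphatase of ERK, had 17.8 in KO and 22.5 in WT MEFs and no peak in mESCs. Myc had 15.5 in KO MEFs and none in KO mESCs (25.4 and 5.30 in WT), and Ier3 29.8 and none (35.9 and 4.30). A KO mESC peak lay 1116 bp from the Ier3 TSS, outside the 1000 bp window. Of 16 Wnt target genes, 2 were in both, 1 in mESCs only, 2 in MEFs only and 11 in neither (beside 46.1%) in KO, and 4, 2, 2 and 8 in WT. Notum, a secreted Wnt antagonist gene, was in mESCs only in both genotypes (5.01 in KO, 4.35 in WT), and Axin2 and Sp5 had no peak in KO.

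Of 20 housekeeping genes, 16 were in both cell types in KO, 3 in MEFs only and 1 in mESCs only (18, 2 and 0 in WT). Polr2a, the gene of RPB1, had 25.8 in KO mESCs and 41.7 in KO MEFs, Actb 6.04 and 38.5 and Gapdh 9.45 and 29.2. Counted at any transcript start, 18 were in both in KO. Of the 8 genes of the H2B ubiquitin protease module and ligase, 7 were in both cell types and 1, Rnf40, in MEFs only, the same counts as in WT.

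The highest folds among all promoters gave further names. In mESCs only in both genotypes, these were Tex19.1, a germline and placenta gene, with 12.96 in KO mESCs, Jade1 (10.3), Sox2 (9.41), Cbx7, a Polycomb subunit (8.88), and Dppa5a (8.08). In MEFs only in both genotypes, Mknk2, a kinase of the ERK and p38 pathways, had 44.4, Tnfrsf12a, the TWEAK receptor, 34.9, Lbh 33.7 and Cirbp, a cold-inducible RNA-binding protein, 33.3. Iqcn also had 44.4, but the summit lay 51 bp from the TSS of Jund and 4457 bp from that of Iqcn. The summits of the Mknk2 and Cirbp peaks lay 1860 bp and 1909 bp from the TSS.

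Among promoters in both cell types in WT and 1 in KO, Zfp36, an mRNA decay factor, had 38.2 in KO MEFs and none in KO mESCs (27.9 and 3.36 in WT) and Ptms 36.3 (46.5 and 4.07), with summits 1042 bp and 2199 bp from the TSS. KO mESCs had a peak 1566 bp from the Zfp36 TSS and 1884 bp from that of Ptms, outside the 1000 bp window. The class change of both genes thus rests on the window. On the other side A4galt had 8.58 in KO mESCs and none in KO MEFs (8.18 and 14.3 in WT), Med12l 7.89 and Trim71, a ubiquitin ligase gene of early embryos, 7.32. Of those in mESCs only in WT and both in KO, Rhpn2 had 9.88 in KO MEFs, Spint2, an epithelial protease inhibitor, 9.50 and Rpp25 8.63. From MEFs only in WT to both in KO went Plxna1, a semaphorin receptor gene (7.89 in KO mESCs), Sesn3 (7.29) and Hspb8 (7.11). Among the full switches of class, Rab11fip1 (9.44), Lpl (8.33), Prkcz (7.46) and the pair Lsr and Fam187b under 1 peak (7.14) led from mESCs to MEFs. Adam22 (6.21), Lrrc15 (5.77), Bhlhe22 (5.72), Catsperd (5.63) and Tub (5.33) led from MEFs to mESCs, where the Catsperd peak lay closer to the TSS of Lonp1 (95 bp). KO MEFs still had a peak 1013 bp from the Catsperd TSS and 1880 bp from that of Tub, outside the window.

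The classes also differed in features that peaks did not define. A promoter was called CpG-rich where its 300 bases had a CpG observed over expected of at least 0.6 and a GC share of at least 55%. This held for 70.9% of the promoters with Pol II in both KO cell types (69.7 to 72.0), 43.9% in mESCs only (38.5 to 49.4), 47.5% in MEFs only (46.0 to 49.0), 10.9% in neither (10.3 to 11.6) and 37.7% of all. The median observed over expected was 0.824 in both, 0.571 in mESCs only, 0.685 in MEFs only and 0.218 in neither. Among promoters with the same single cell type in both genotypes, 37.5% (mESCs) and 43.7% (MEFs) were CpG-rich. Of the printed promoters, Sox2 and Polr2a meet the rule, and Nanog, Upk1b and Hoxa10 do not.

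H2Bub1, which is placed on genes as they are transcribed, differed between the Pol II classes in KO MEFs, while in KO mESCs it was on most genes of each class except those with Pol II in neither. Among promoters in mESCs only in KO, 93.7% of genes (90.6 to 96.1) had an H2Bub1 peak on the gene in KO mESCs and 15.8% (12.1 to 20.2) in KO MEFs. Among those in MEFs only, 89.9% had one in KO MEFs (88.9 to 90.7), but 82.7% also in KO mESCs (81.6 to 83.8). The median share of the gene covered was 40.1% in KO MEFs and 20.7% in KO mESCs for MEF-only promoters, and 0% and 32.0% for mESC-only ones. Genes with Pol II in both had H2Bub1 in 98.0% (mESCs) and 95.8% (MEFs), and genes in neither in 27.4% and 11.2%. Most genes whose promoter was called in KO MEFs only thus carried H2Bub1 in KO mESCs, where that promoter had no Pol II peak. A Pol II summit in the gene body was present in KO mESCs at 11.4% of all MEF-only genes (521 of 4553). Among MEF-only genes, Col1a1, Col3a1 and Vim had 10.4%, 0% and 18.9% of the gene covered in KO mESCs and 54.0%, 15.7% and 80.2% in KO MEFs. Upk3b was covered over 100% in KO MEFs and 0% in KO mESCs.

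**Figure D5:**
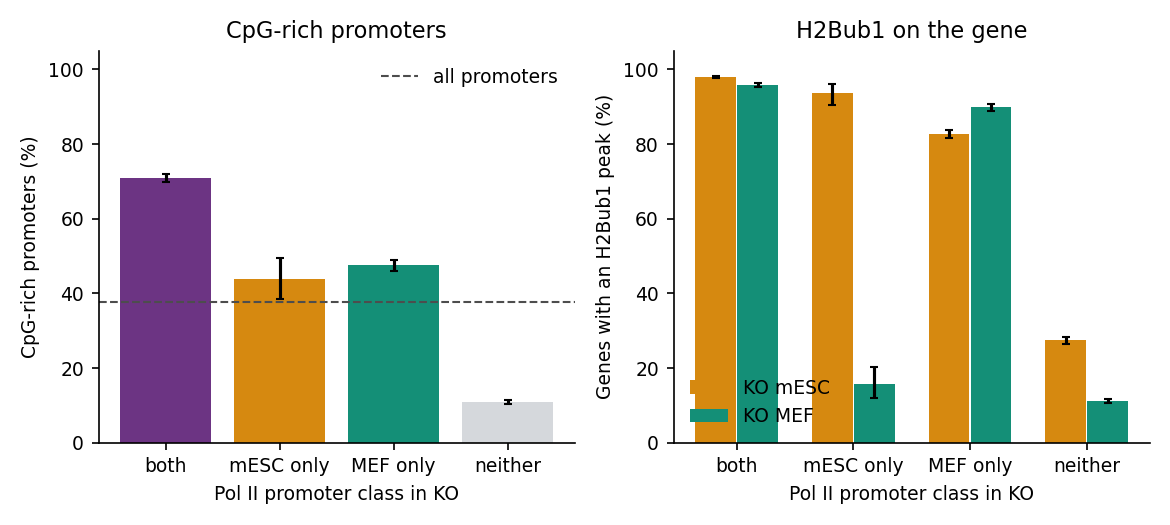
Share of CpG-rich promoters (left, %) and of genes with an H2Bub1 peak in KO mESCs and KO MEFs (right, %) by Pol II promoter class in KO, with exact 95% intervals and the share over all promoters as a dashed line. CpG-rich promoters reach 70.9% in the shared class, and H2Bub1 on MEF-only genes stands at 82.7% in KO mESCs.

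Short motifs were counted in the same 300 bases on both strands, by exact letters. The motif CCGGAAG, bound by ETS factors, was in 19.6% of promoters with Pol II in both KO cell types, 17.4% in MEFs only, 5.37% in mESCs only, 2.54% in neither and 11.0% of all. The TATA box letters TATAAA were in 6.45%, 7.31%, 10.4%, 19.5% and 12.7% in the same order. The KLF letters GGGNGTGG stood at 23.0%, 22.9%, 22.7%, 13.9% and 18.8%. AP-1 letters (TGANTCA) were in 3.87%, 4.85%, 7.46%, 9.81% and 6.88%, TEAD letters (GGAATGT) in 2.30%, 2.88%, 1.19%, 4.79% and 3.56%, and octamer letters (ATTTGCAT) in 1.51%, 0.966%, 2.09%, 1.91% and 1.59%. ESRRB letters (TCAAGGTCA) were in 0.490% and RUNX letters (TGTGGTTT) in 1.61% of all promoters. The ETS letters hold a CpG and the TATA letters none, and the part of base composition in these shares was not tested. Of the 8 epithelial and mesothelial promoters with Pol II in KO MEFs only, Krt7, Upk1b and Upk3b held the TEAD letters, Gata4 and Msln the AP-1 letters, Lrrn4 and Wt1 the KLF letters and 0 the ETS letters. A match describes these letters in this window only.

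The summit windows of peaks gave the same order for ETS letters. They were in 17.6% of KO mESC promoter peaks shared with KO MEFs and 4.59% of the others, and in 19.5% of shared and 16.7% of other KO MEF promoter peaks. AP-1 letters were in 2.43% of shared and 4.01% of other KO MEF promoter peaks. At intergenic peaks outside the 5000 bp behind a gene end they were in 14.0% of the KO MEF peaks without and 7.51% of those with a KO mESC peak, and in 11.1% and 6.84% for KO mESCs. The shared windows there had a higher GC share, with medians of 61.3% against 50.7% in KO MEFs and 58.7% against 51.7% in KO mESCs.

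Within called promoters the summit lay close behind the TSS. Its median position was 72 bp downstream in KO mESCs (67 to 76) and 85 bp in KO MEFs (82 to 88) where both had a peak, 127 bp in mESCs only (90 to 168) and 91 bp in MEFs only (87 to 95). Summits in the gene body beyond the promoter were found in KO MEFs for 37.2% and in KO mESCs for 14.8% of the genes called in both cell types. For Cald1, an actin-binding protein gene, there were 110 such summits in KO MEFs and 0 in KO mESCs, and for Fn1, the fibronectin gene, 33 and 0.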

How the data were processed

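Per the labels, the 16 samples include 8 with a peak list used here, 4 of them for Pol II, 1 library per group. The other 8 samples were not used here. The authors aligned single-end reads to mm10 with Bowtie 1.0.0 and called peaks per library with MACS2 2.1.1.20160309. The control and the thresholds are not given in the sources used here, and the read depth is unknown, so a longer list may reflect more reads.

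For each peak the authors deposited a fold (a linear ratio of pileup over local background), the summit offset and significance as -log10 of p and of q. The lowest -log10 q was 1.40 (KO mESCs) and 1.33 (KO MEFs). The authors scaled Pol II signal by total mapped reads, and how this entered the calls is not stated.

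Peaks (1-based) were set against GENCODE M21 gene records of 20807 autosomal protein-coding genes. H2Bub1 on a gene was the share of the gene record inside H2Bub1 peaks. Percentages carry exact Clopper-Pearson and medians exact binomial 95% intervals. Alternatives comprised peaks with a -log10 q from 3 upwards, the MEF list reduced to the mESC number, a narrow promoter (100 bp before to 300 bp behind the TSS), X and Y included, all annotated genes, genes 5000 bp apart, no peak of the other cell type within 5000 bp, 50% overlap and, added after the data were seen, any annotated transcript start. Functions were tested on simulated peaks.

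Named genes are those of 12 lists (pluripotency, fibroblast, contractile, epithelial and mesothelial, endothelial, blood, primitive endoderm, ERK targets, Wnt targets, housekeeping, Hox, H2B protease module), Atxn7l3, and the 5 highest promoters by fold in 1 cell type only in both genotypes and the 3 to 5 highest of each class change. Further names came from the shared promoters with the highest mESC to MEF ratio and from the strongest intergenic peaks of each KO library. Some of the genes and sequences so chosen are not reported here. The members and lists were chosen with earlier results of these data known. The tools were matplotlib 3.10.9, pandas 2.3.3 and scipy 1.17.1 on numpy 2.4.6 under Python 3.11.15.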

Additional observations from a re-analysis of the deposited data

How the results depend on the processing

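Of 118 recomputations of the main results, 69 stayed within their interval or within 1.5-fold of the count, 47 moved further and 2 reversed. With equal numbers of peaks, the promoter share of KO mESCs minus that of KO MEFs turned to -18.5 percentage points and the gene-body share of KO MEFs minus that of KO mESCs to -7.19. The KO MEF shares became 70.7% (promoter), 18.8% (gene body) and 10.46% (intergenic), the shared KO mESC peaks 89.5%, 37.0% and 24.2% and the shared KO MEF peaks 62.5%, 35.8% and 34.0%. The mESC-only promoters numbered 615, the same class in KO held for 38.9% (WT mESC-only) and 58.2% (WT MEF-only), a difference of 19.3 points, and the MEF to mESC ratios were 2.70 for covered length and 2.68 for median width.

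At a -log10 q of at least 3, promoters and gene bodies held 54.0% and 24.8% of KO mESC and 33.0% and 45.4% of KO MEF peaks, and 53.7% of KO MEF promoter peaks were shared. With the narrow promoter the shares were 36.1%, 35.9% and 28.0% in KO mESCs and 22.8%, 51.9% and 25.3% in KO MEFs, with differences of 13.3 and 16.0 points. With all annotated genes, promoter and intergenic shares were 57.3% and 17.0% (KO mESCs) and 35.3% and 17.7% (KO MEFs), 564 promoters were mESC-only and 59.7% of WT MEF-only promoters kept their class. Among the 9757 genes 5000 bp apart, 2135 promoters were in both, 179 in mESCs only and 1631 in MEFs only, and 38.5% and 61.3% kept their class, a difference of 22.7 points. With no peak of the other cell type within 5000 bp, 63.1% of WT MEF-only promoters did. At 50% overlap, shared peaks were 92.6%, 48.1% and 34.7% (KO mESCs) and 23.5%, 3.70% and 5.17% (KO MEFs). The changed numbers of peaks, genes or bases counted (more genes with all annotated genes, fewer elsewhere) bear by construction on the counts, and otherwise the cause was not tested. Any transcript start, chosen after seeing the data, moved none of the main results it was run on.

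No paired analysis was possible because each group had 1 library and no result came from a test. Leaving out a replicate was not possible either. Read depth is unknown, so a promoter without a peak was not detectable as bound at the authors' threshold, which does not show that Pol II was absent.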
